A study of Mus musculus with 3 samples.

Results

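The enzymes described here move nitrogen through arginine, citrulline, ornithine and the polyamines: Cps1, Otc, Ass1, Gm5424, Asl, Arg1, Arg2, Oat, Odc1 and Nos2. These 10 genes, of 24346 gene symbols listed, were selected on their FPKM in these same files, read in an earlier look at the data, so the levels below are a description and carry no test. All libraries come from the distal colon of 8-week-old wild-type mice at steady state, labelled with the strain name JAX (a supplier's name), and were made from polyadenylated RNA. The 3 files form 1 group, so no condition is compared. The unit is FPKM, the number of fragments scaled to the length of the transcript and the size of the library. Over all genes the spread between the files was close to what counting error gives, and they were counted as 1 sample. Each ± is the SD over 3 files, and whether it holds any spread between animals cannot be told. The deposited names of the 3 files carry the same library index and the same sequencing lane and differ in a running number, and the labels do not say whether separate animals were used.

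Arginine is the common substrate of arginases, which split it into urea and ornithine, and of nitric oxide synthases, which turn it into nitric oxide and citrulline. In the liver Cps1, Otc, Ass1, Asl and Arg1 form the urea cycle, while in the intestine Cps1, Otc and Oat can make citrulline, which other organs convert to arginine through Ass1 and Asl. Ornithine is also the starting point of the polyamines putrescine, spermidine and spermine, which dividing cells of the gut epithelium need and which Odc1 begins to make.

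Gm5424 needs a word before its values, because its sequence is that of Ass1, argininosuccinate synthase, with few changes. RefSeq on GRCm38.p6 places Gm5424 as a transcribed pseudogene at chr10:62071022-62072571, and GENCODE M21 models it as a processed pseudogene with 1 exon, against 16 exons for Ass1 on chromosome 2. The GENCODE model of 1240 bases covers the whole coding sequence of Ass1 (1236 bases) without a gap and differs from it at 6 bases, an identity of 99.5%. Counted from the first base of the Ass1 start codon, with the Ass1 base first, these are T399C, T429C, A520T, G656C, T1011C and C1143T. The 240 coding bases with the most differences (coding positions 281 to 520) are printed to show how little separates the models. They lie in exons 5 to 8 of Ass1 (chr2:31481081-31492338, plus strand, introns between) and at chr10:62071403-62071642 (plus strand) for Gm5424, both on GRCm38, 5′ to 3′. Capitals mark the 3 bases that differ.
Ass1: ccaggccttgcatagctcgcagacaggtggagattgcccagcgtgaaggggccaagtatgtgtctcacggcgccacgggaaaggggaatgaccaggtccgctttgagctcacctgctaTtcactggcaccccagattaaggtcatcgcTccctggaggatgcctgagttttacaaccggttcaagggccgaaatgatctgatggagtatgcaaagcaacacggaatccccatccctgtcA
Gm5424: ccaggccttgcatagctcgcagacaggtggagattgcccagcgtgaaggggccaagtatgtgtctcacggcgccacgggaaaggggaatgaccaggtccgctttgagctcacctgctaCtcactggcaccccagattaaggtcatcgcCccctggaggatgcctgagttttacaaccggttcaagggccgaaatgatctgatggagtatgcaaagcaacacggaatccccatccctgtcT
The longest stretch without a difference was 398 bases. Of all windows of 50 bases in the Ass1 transcript, 55.3% also occur in the GENCODE model of Gm5424, and of windows of 100 bases 38.9%. The RefSeq pseudogene is longer than this model, and its windows were not counted.

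The deposited files do not list Gm5424 at that place. Their only entry for it runs from base 31470308 to 31520629 of chromosome 2 with a length of 1552 bases, inside the Ass1 entry (chromosome 2, 31470270 to 31520670, 1631 bases), and no entry lies over the pseudogene on chromosome 10. In these files Ass1 and Gm5424 are therefore 2 models of 1 locus, and the sum of both is used below as the level of that locus. Reads from the pseudogene and from Ass1 cannot be told apart here.

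With Ass1 and Gm5424 as separate entries, 7 of the 10 genes stood at 1 FPKM or more in every file. Of all symbols, 48.5% did. The rule used these levels, so nothing is read from that share. Oat was highest at 114 ± 4.73 FPKM, above 97.7% of all symbols. Ass1 plus Gm5424 (36.2 ± 2.78 FPKM) and Odc1 (35.9 ± 0.518 FPKM) followed, and their file ranges overlapped. Asl (15.5 ± 1.03 FPKM) came next, then Cps1 (4.75 ± 1.18 FPKM) and Otc (4.22 ± 0.659 FPKM), whose ranges also overlapped. Arg1 (1.75 ± 0.123 FPKM), Arg2 (0.636 ± 0.00487 FPKM) and Nos2 (0.138 ± 0.138 FPKM) closed the order. The file ranges of all other neighbours were apart. The RNA is that of a whole tissue, so fewer cells of a type and less RNA per cell cannot be told apart.

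**Figure D1:**
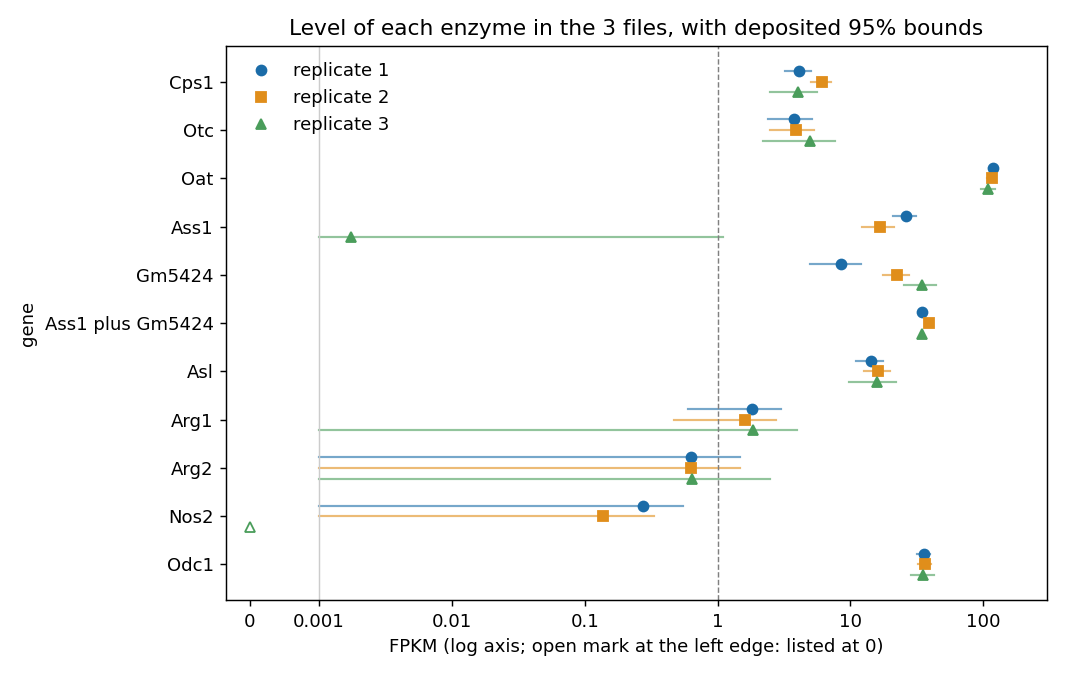
FPKM (log axis) of each enzyme in the 3 files, by replicate, with the 95% bounds the authors deposited as lines (a bound of 0 is drawn to 0.001) and a dashed line at 1 FPKM. Oat lies above 100 FPKM in every file, the sum of Ass1 and Gm5424 lies between 34.5 and 39.4 FPKM although each alone is scattered, and Nos2 is listed at 0 in replicate 3.

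The depth recovered from the deposited bounds was 3.78e+06, 3.79e+06 and 1.24e+06 mapped fragments in replicates 1, 2 and 3, so replicate 3 has the widest bounds. Among the 8771 single-isoform genes whose mean reached 1 FPKM, 5 (0.057%) differed between files by a chi-square test against sampling variance (Benjamini-Hochberg adjusted p under 0.05), and 429 had an unadjusted p under 0.05. With variances taken from length and depth, 29 of 12629 genes (0.23%) passed at the same adjusted p. The median ratio of the variance between files to the sampling variance was 0.677, against 0.689 in simulated data with no change. Nothing is read from this test about the enzymes, which were selected on these values.

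The enzymes of citrulline synthesis were unequal. Oat, ornithine aminotransferase, links ornithine to glutamate and proline in mitochondria (chromosome 7, 132557475 to 132576398), and stood at 118, 116 and 109 FPKM in replicates 1, 2 and 3. Cps1, carbamoyl phosphate synthetase, feeds ammonia into the urea cycle (chromosome 1, 67123027 to 67231267) and stood at 4.12, 6.12 and 4.02 FPKM. Replicate 2 was the high one. Otc, which joins carbamoyl phosphate and ornithine into citrulline (chromosome X, 10252359 to 10321024), stood at 3.77, 3.90 and 4.97 FPKM. Its value rests on 30, 31 and 13 fragments, and the pooled 95% exact Poisson interval was 3.18 to 5.09 FPKM.

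Within a file, the Cps1 level was 1.09, 1.57 and 0.809 times that of Otc, so the order of these enzymes turned in replicate 3. Oat was 31.3, 29.7 and 21.9 times as high as Otc, higher in all 3 files. Nags, which makes the N-acetylglutamate that Cps1 requires, rested on 3 fragments over all files, for a pooled interval of 0.0365 to 0.518 FPKM. The ornithine carrier of the mitochondrial membrane, Slc25a15, stood at 7.0 ± 1.56 FPKM, while the related carrier Slc25a2 was at 0 in every file, with an upper limit of 0.295 FPKM (the level that 3 fragments over all files would give, counting error only). Aldh18a1, which makes the pyrroline carboxylate that Oat can turn into ornithine, stood at 6.35 ± 0.299 FPKM. Of the 7 genes of this branch, 5 reached 1 FPKM in every file. The median of the branch was 4.75 FPKM, against 1.25 FPKM over all symbols.

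Oat also belongs to the ornithine, proline and glutamate genes, of which 10 of 13 reached 1 FPKM in every file (median 8.76 FPKM). Glul, glutamine synthetase, stood at 169 ± 4.41 FPKM, the only gene of this list with a mean above that of Oat. The mitochondrial enzymes Glud1, glutamate dehydrogenase, and Got2, an aspartate aminotransferase, stood at 60.6 ± 3.42 and 39.8 ± 2.90 FPKM. Glud1 and Got2 are uncertain, since 656 and 1637 of their bases match the genes Glud-ps and Gm10874. The last step to proline had unequal members: Pycrl stood at 22.7 ± 2.28 FPKM, while Pycr1 rested on 10 fragments (pooled interval 0.200 to 0.767 FPKM). Among the proline oxidation enzymes, Prodh stood at 2.21 ± 0.688 FPKM, Prodh2 rested on 1 fragment and Aldh4a1, which shares 1128 bases with Gm21969, stood at 7.30 ± 0.230 FPKM.

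Citrulline is turned into arginine by Ass1 and Asl. The entry Ass1 stood at 26.1, 16.8 and 0.00173 FPKM in replicates 1, 2 and 3, and the entry Gm5424 at 8.45, 22.6 and 34.7 FPKM. Ass1 thus held 75.5%, 42.6% and 0.00498% of the sum, and the entry that held most was Ass1 in replicate 1 and Gm5424 in the other two. The sum was 34.5, 39.4 and 34.7 FPKM, with the highest value 1.14 times the lowest. The deposited 95% bounds of Gm5424 were 4.94 to 12.0 FPKM in replicate 1 and 25.4 to 44.1 FPKM in replicate 3, and did not overlap.

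**Figure D2:**
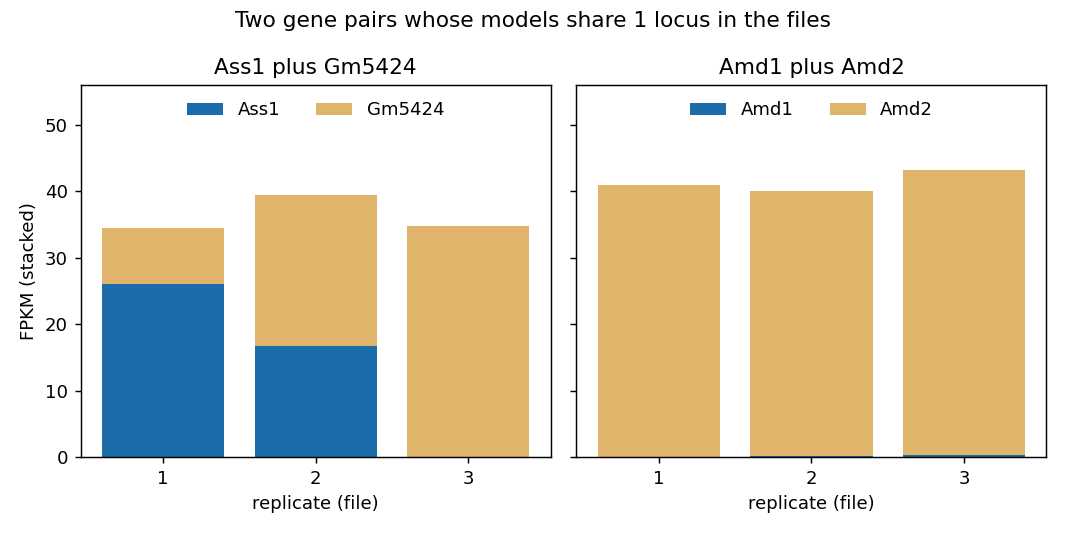
Stacked FPKM of Ass1 and Gm5424 (left) and of Amd1 and Amd2 (right) in each of the 3 files. The Ass1 share is 75.5%, 42.6% and 0.00498% in replicates 1, 2 and 3 while the bar height stays between 34.5 and 39.4 FPKM, and Amd2 holds over 99% of the right-hand bars.

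Asl, argininosuccinate lyase, releases arginine and fumarate (chromosome 5, 130011503 to 130024331) and stood at 14.3, 16.3 and 15.9 FPKM. The Ass1 locus was 2.41, 2.42 and 2.19 times as high as Asl in the 3 files, 2.34 ± 0.133 on average. With the entry Ass1 alone the mean ratio would be 0.95. The sum of Ass1 and Gm5424 was 9.14, 10.1 and 6.98 times as high as Otc. The other genes of this branch supply aspartate or take up fumarate: the aspartate-glutamate carriers Slc25a12 (14.3 ± 2.37 FPKM) and Slc25a13 (7.66 ± 0.186 FPKM), fumarase Fh1 (65.2 ± 1.57 FPKM), malate dehydrogenase Mdh1 (134 ± 2.01 FPKM) and the aminotransferase Got1 (28.1 ± 3.02 FPKM). All of these reached 1 FPKM in every file, which made 6 of 7 genes with the exception of the entry Ass1 (median 15.5 FPKM). This count and median take the entry Ass1 without Gm5424. The sum of both stood at 34.5 FPKM or more in every file. With the sum, all 7 genes would reach 1 FPKM and the median would be higher.

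Both arginases were low. Arg1, the cytosolic arginase of liver and of alternatively activated macrophages (chromosome 10, 24915207 to 24927470), stood at 1.81, 1.61 and 1.84 FPKM on 9, 8 and 3 fragments, with a pooled 95% exact Poisson interval of 1.08 to 2.73 FPKM. Arg2, the mitochondrial arginase (chromosome 12, 79130788 to 79156301), stood at 0.633, 0.633 and 0.641 FPKM, which by its length and the depth comes to about 2.93, 2.93 and 0.976 fragments. Its SD is therefore smaller than counting error and is no measure of precision. Arg1 was 2.86, 2.54 and 2.86 times as high as Arg2, higher in all 3 files, but the deposited 95% bounds of both overlapped in each file (0.604 to 3.02 FPKM for Arg1 and 0 to 1.48 FPKM for Arg2 in replicate 1). Arg2 is also uncertain because 285 of its bases match a transcript of another gene, Vti1b.

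Gatm, which moves the amidino group of arginine to glycine on the way to creatine and releases ornithine, stood at 10.4 ± 1.57 FPKM, above both arginases in every file. Gamt, the second enzyme of creatine synthesis, stood at 1.35, 0.678 and 4.12 FPKM on 10 fragments in all, the high value being in the shallow replicate 3. Agmat, which hydrolyses agmatine, rested on 1 fragment. Of the 5 genes of this branch 2 reached 1 FPKM in every file, Arg1 and Gatm.

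Nos2, the inducible nitric oxide synthase of inflamed epithelium and activated macrophages (chromosome 11, 78920859 to 78960124), had the lowest mean of the 10 enzymes. It stood at 0.276, 0.138 and 0 FPKM on 4, 2 and 0 fragments, and the pooled interval over the 3 files was 0.0658 to 0.390 FPKM. The count of 0 in replicate 3 allows a level of up to 0.635 FPKM (3 fragments, counting error only). The neuronal enzyme Nos1 was the highest of the synthases at 3.55, 2.91 and 2.95 FPKM, above Nos2 and Nos3 in every file. Nos3, the endothelial enzyme, stood at 0.801, 0.334 and 0.203 FPKM, and 294 of its bases match the gene Atg9b.

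The genes around the nitric oxide synthases stood higher than the synthases themselves. Of 7 genes that make or recycle tetrahydrobiopterin, the cofactor of the synthases, 6 reached 1 FPKM in every file (median 31.9 FPKM). Gch1, the rate-limiting enzyme, stood at 6.26 ± 0.653 FPKM and the later enzymes Pts and Spr at 32.1 ± 3.10 and 31.9 ± 6.60 FPKM. Spr is uncertain, as 294 of its bases match Spr-ps1. The recycling enzyme Qdpr stood at 42.2 ± 2.44 FPKM. Ddah1 and Ddah2, which break down methylated arginines that inhibit the synthases, stood at 2.45 ± 0.0754 and 3.16 ± 1.17 FPKM, and Prmt1, which makes such residues in proteins, at 23.9 ± 2.28 FPKM. Agxt2, which also degrades methylated arginine, was listed at 0 in every file, with a limit of 0.209 FPKM. In the list of inhibitors and their removal 10 of 11 measured genes reached 1 FPKM in every file (median 7.35 FPKM), Dynll1 leading at 68.0 ± 2.01 FPKM. Downstream, the soluble guanylate cyclase subunits Gucy1a3 and Gucy1b3, the receptor for nitric oxide, stood at 7.99 ± 1.52 and 5.94 ± 0.406 FPKM. Pde5a, which degrades cyclic GMP, stood at 29.5 ± 0.470 FPKM and the smooth muscle kinase Prkg1 at 3.22 ± 0.262 FPKM. Of the 7 receptor and effector genes measured 5 reached 1 FPKM in every file (median 5.94 FPKM).

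Odc1, ornithine decarboxylase, makes putrescine from ornithine (chromosome 12, 17544873 to 17551502). It stood at 35.7, 36.4 and 35.4 FPKM, with deposited bounds of 31.7 to 39.7 FPKM in replicate 1, and above 92.3% of all symbols. The SD of 0.518 FPKM is smaller than the counting error behind these bounds and is no measure of precision. A stretch of 937 bases (42.4% of the transcript) matches the processed pseudogene Gm17709 at 97.8% identity, which makes the Odc1 level uncertain. Oat was 3.31, 3.17 and 3.08 times as high as Odc1. Odc1 was 19.7, 22.6 and 19.3 times as high as Arg1 and 56.5, 57.5 and 55.2 times as high as Arg2, ratios that rest on the few fragments of the arginases. Otc, Oat and Odc1, which use ornithine, were each above both arginases in every file.

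Of the 8 polyamine synthesis genes, Odc1 included, 7 stood at 1 FPKM or more in every file (median 21.1 FPKM). The one below was the entry Amd1, at 0.10, 0.261 and 0.303 FPKM, beside an entry Amd2 at 40.9, 39.7 and 42.9 FPKM. Both encode S-adenosylmethionine decarboxylase, which supplies the aminopropyl groups of spermidine and spermine. As with Gm5424, the files list Amd2 inside the Amd1 locus (chromosome 10, 40287465 to 40302186, in the Amd1 entry of 40287458 to 40302188), while RefSeq has this gene at bases 35708691 to 35711891 of the same chromosome and GENCODE gives it 1 exon against 8. The GENCODE transcripts of both are 99.7% identical over 3198 aligned bases. Their sum was 41.0, 40.0 and 43.2 FPKM, or 1.15 ± 0.0614 times Odc1. The count and median of the list take the entries Amd1 and Amd2 separately. With their sum in place of both, no entry of the list would be below 1 FPKM and the median would be higher. The spermidine synthase Srm and the spermine synthase Sms stood at 6.39 ± 0.635 and 6.09 ± 0.939 FPKM, with Odc1 5.66 ± 0.672 and 6.0 ± 1.10 times as high; 1101 bases of Sms match the pseudogene Sms-ps. Mat2a and Mat2b, the subunits that make S-adenosylmethionine, stood at 75.0 ± 1.55 and 46.5 ± 6.89 FPKM, and Mtap, which recycles the by-product methylthioadenosine, at 5.47 ± 0.886 FPKM.

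Antizymes bind Odc1 protein and send it to the proteasome, and antizyme inhibitors counter them. Oaz1 stood at 119, 133 and 130 FPKM, 3.56 ± 0.187 times the level of Odc1 and higher in all 3 files. Oaz2 stood at 22.9 ± 2.04 FPKM and the inhibitor Azin1 at 32.9 ± 0.998 FPKM. Oaz3, known from testis, stood at 2.02, 2.02 and 0 FPKM on 12 fragments, and 256 of its bases match the gene Tdrkh. The copies Oaz1-ps and Oaz2-ps match the first pair over 685 and 471 bases, so both levels are uncertain.

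Genes of polyamine breakdown included some of the highest values around Odc1. Sat1, which acetylates spermidine and spermine for export or oxidation, stood at 121, 133 and 120 FPKM, 3.47 ± 0.155 times Odc1. Aoc1, the diamine oxidase that degrades putrescine and histamine, stood at 160, 158 and 149 FPKM, 4.34 ± 0.137 times Odc1. Both were above Odc1 in every file. The oxidases Smox and Paox were lower, at 6.81 ± 0.707 and 4.79 ± 2.32 FPKM, and 1358 bases of Paox match the pseudogene Gm19680. Sat2 stood at 1.84, 0.737 and 0 FPKM on 7 fragments, so 4 of 5 measured genes reached 1 FPKM in every file (median 6.81 FPKM).

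**Figure D3:**
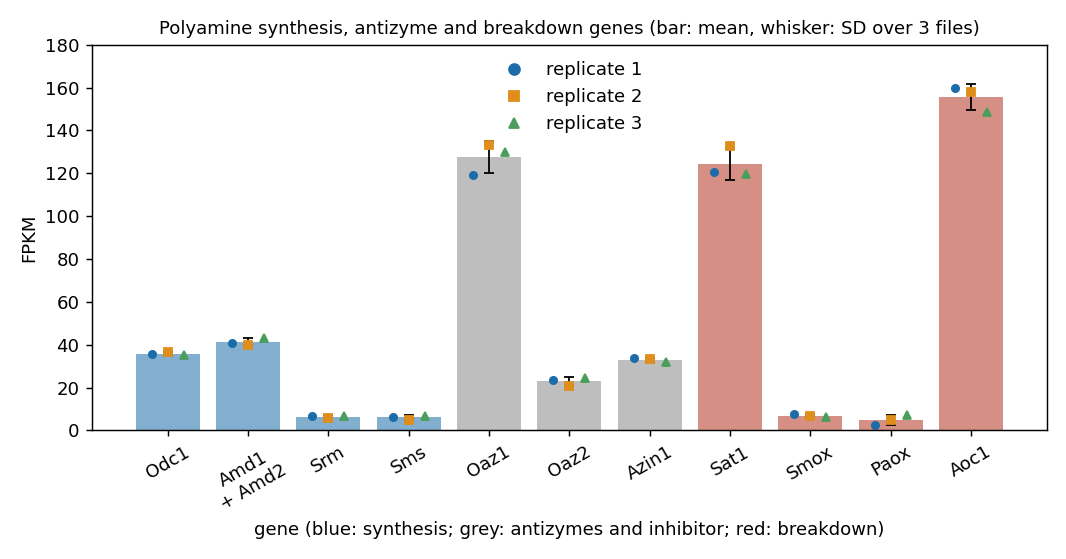
FPKM (linear axis) of polyamine synthesis genes (blue), antizymes and their inhibitor (grey) and breakdown genes (red); bars are means, whiskers the SD over 3 files, marks the single files. Oaz1, Sat1 and Aoc1 stand above 100 FPKM in every file and Odc1 between 35.4 and 36.4 FPKM.

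Spermidine also serves to form hypusine, a modified lysine found in the translation factor eIF5A. Eif5a stood at 191 ± 9.16 FPKM, uncertain for the pseudogene Eif5al3-ps, and the modifying enzymes Dhps and Dohh at 5.0 ± 1.25 and 9.47 ± 1.10 FPKM. Both are uncertain too, since 762 bases of Dohh (52.8% of the transcript) are identical to Gm48551 and 128 bases of Dhps to Wdr83. The paralogue Eif5a2 stood at 0.602, 0.821 and 1.5 FPKM, and 3 of the 4 genes reached 1 FPKM in every file (median 7.23 FPKM).

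Of 9 genes linked to polyamine transport, 7 reached 1 FPKM in every file (median 5.66 FPKM). The lysosomal exporter Atp13a2 stood at 4.80 ± 0.529 FPKM, its relative Atp13a3 at 27.9 ± 2.38 FPKM and the vesicular carrier Slc18b1 at 10.9 ± 1.25 FPKM. Slc22a2 was listed at 0 in every file, with a limit of 0.175 FPKM. Of 12 amino acid carriers, 8 reached 1 FPKM in every file (median 2.35 FPKM). Slc6a14, a carrier of neutral and cationic amino acids, stood at 154, 151 and 154 FPKM, the highest of them in each file. The cationic carrier Slc7a1 stood at 3.49 ± 0.43 FPKM, Slc7a2 at 0.457 ± 0.0918 FPKM, and Slc7a3 was at 0 in every file (limit 0.163 FPKM). The basolateral exchanger Slc7a7 stood at 12.9 ± 1.88 FPKM and its heavy chain partner Slc3a2 at 23.3 ± 2.23 FPKM. The apical exchanger Slc7a9 stood at 2.42 ± 0.308 FPKM and its partner Slc3a1, which shares 601 bases with Prepl, at 0.331 ± 0.0728 FPKM.

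**Figure D4:**
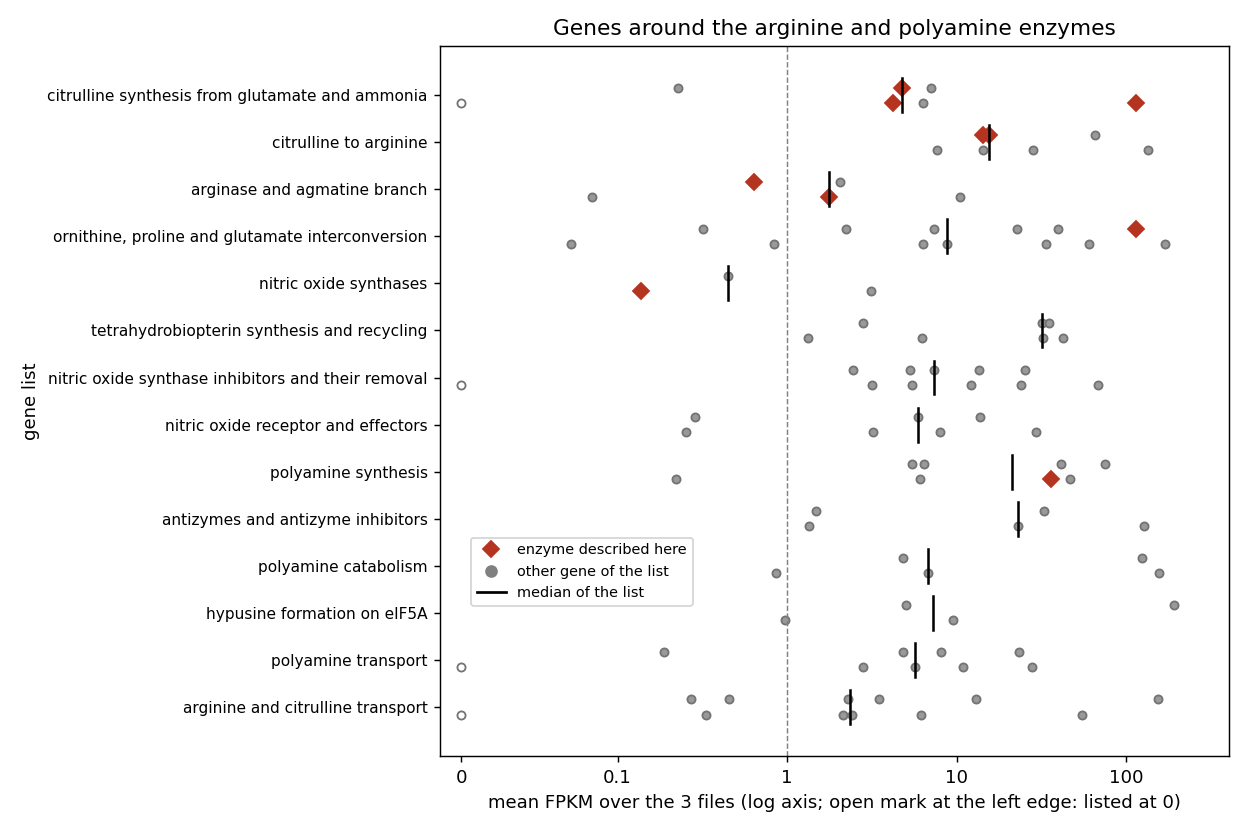
Mean FPKM over the 3 files (log axis) of each measured gene of the 14 lists, one list per row; diamonds are enzymes described here, circles other genes and bars the list medians. The nitric oxide synthases and the arginase branch have the lowest medians, 0.446 and 1.75 FPKM.

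Counted once, 69 of 92 other genes of these lists stood at 1 FPKM or more in every file, 34 at 10 FPKM or more and 4 at 0 throughout. Their median was 6.37 FPKM. Amd1 and Amd2 are separate entries in these counts. Over all 24346 symbols, 11812 reached 1 FPKM, 5220 reached 10 FPKM and 7286 were at 0. The lists were written around known enzymes, so nothing is read from the difference. Among the genes described, Nags, Qdpr, Azin1, Mat2a, Slc7a7 and Slc25a12 also share between 200 and 445 bases with another gene, which leaves their levels uncertain.

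Markers of tissues in which these enzymes are strong were read in the same files. All 7 colonocyte markers reached 1 FPKM in every file (summed level 10600 to 10692 FPKM). Most of that sum was Lypd8, at 8567 ± 57.7 FPKM. Of 8 liver markers, where Cps1, Otc, Ass1, Asl and Arg1 are abundant, all 8 did, with a summed level of 297 to 318 FPKM and albumin, Alb, at 129 ± 5.35 FPKM. Of 10 markers of small intestinal enterocytes, another site of Cps1 and Otc, 7 did, with a summed level of 319 to 343 FPKM. Fabp6 and Slc15a1 were highest, at 95.6 ± 5.85 and 85.3 ± 5.45 FPKM. Lactase, Lct, stood at 0.0440 ± 0.0441 FPKM and Alpi at 0.285 ± 0.0731 FPKM. The part of these markers' cells in the levels of the urea cycle enzymes was not tested. Of the 7 macrophage markers all reached 1 FPKM (summed level 198 to 209 FPKM), and of 5 markers of alternative activation 4 did (29.0 to 35.8 FPKM), with Retnla at 23.5 ± 3.74 FPKM and Chil3 on 1 fragment. Of 5 measured neutrophil markers none reached 1 FPKM in every file and 4 were at 0. The limit was 0.145 FPKM for Mpo and 0.468 FPKM for Elane, but 1.71 FPKM for S100a8 and 1.04 FPKM for S100a9. The zeros of S100a8 and S100a9 therefore do not place them under 1 FPKM. Cxcr2 stood at 0.634 ± 0.205 FPKM. Beside Nos1 and Nos3, 6 of 7 enteric neuron markers (67.8 to 70.5 FPKM) and all 6 endothelial markers (34.7 to 38.1 FPKM) reached 1 FPKM. Beside Odc1, all 7 markers of dividing crypt cells did (180 to 184 FPKM), with Mki67 at 14.6 ± 0.577 FPKM. All 6 smooth muscle markers also reached 1 FPKM in every file (2624 to 2724 FPKM), with Tagln at 754 ± 18.9 FPKM. The part of all these cells in the levels of Arg1, Nos1, Nos3, Odc1, Pde5a and Prkg1 was not tested.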

How the data were processed

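Each library has 1 isoform table. FPKM values with lower and upper 95% bounds were deposited by the authors, per the file headers. A coverage (signal) column was also deposited and stayed unused. The submitters' processing notes list Cufflinks 2.2.1, TopHat2 2.1.1 and Bowtie2 2.3.4.3, without settings. No source used here gives the strandedness or the handling of multiply placed reads. The notes name GRCm39, but the loci printed by the files match RefSeq on GRCm38.p6, and coordinates are given on that build, counted from 1.

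Isoform FPKM (34535 rows) were summed per symbol, with no rescaling. Each of the 10 enzymes has 1 isoform in the files. The upper bound less the FPKM was read as 2 standard errors, and the squared ratio of FPKM to standard error as fragments. Fragment counts were printed only where all 3 values lay within 0.05 of a whole number. Depth came from the Theil-Sen slope of fragments per FPKM on length, in genes with 1 isoform, over 800 bases and up to 30 fragments that were whole within 0.01 (64.1% to 64.3% of the values tested). Estimates from length took off 193 bases. Intervals and limits cover counting error only.

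The test between files compared the 3 values of a gene with their weighted mean by chi-square against sampling variance, with Benjamini-Hochberg adjustment. In simulated data for the same 8771 genes, 1 gene was called with no change. With 100 genes changed 1.5-fold and 100 changed 2-fold, the test called 43% and 71% of them, and also 6 genes left unchanged.

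The genes and lists were chosen with earlier results of these data known. The genes named are the 10 enzymes and any gene of the 14 pathway lists; markers served as context. Some genes of the lists are counted but not reported by name here. Of the symbols in these lists, 6 were not in the files; they are other names of the same genes or were not analysed here. Stretches shared with another gene were sought for the 10 enzymes and 92 other genes with BLAST+ 2.17.0 in the GENCODE M21 transcripts. A match was 100 or more bases at 97% identity or above, on either strand. It was found for 4 of the 10 enzymes and 36 of the 92 other genes. Antisense transcripts and genes overlapping at the same place were not set apart. The counts are therefore not counts of copies elsewhere. Ass1 and Gm5424 were aligned with Biopython 1.88. Other software was matplotlib 3.10.9, SciPy 1.17.1, pandas 2.3.3 and numpy 2.4.6 under Python 3.11.15. Alternatives covered the threshold, TPM, the highest isoform, depth weights, the pseudocount, Ass1 alone, the genes tested between files and leaving out each replicate.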

Additional observations from a re-analysis of the deposited data

How the results depend on the processing

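Rescaled to TPM, the levels were 267 for Oat, 84.8 for Ass1 plus Gm5424, 83.9 for Odc1, 51.3 for Gm5424, 36.3 for Asl, 33.5 for Ass1, 11.1 for Cps1, 9.86 for Otc, 4.1 for Arg1, 1.49 for Arg2 and 0.324 for Nos2, by construction all higher, since the FPKM of a file sum to less than its TPM. Of the arginase branch, 4 genes reached 0.5 FPKM or 1 TPM in every file and 1 reached 2 FPKM. With Ass1 alone its ratio to Asl was 0.95. A pseudocount of 1 FPKM moved Arg2 over Arg1 to 0.595 and Odc1 over Arg2 to 22.5. Without 1 replicate, 2 to 5 genes differed between files (2 without replicate 1, 2 without replicate 2), and 29 did with variances from length and depth over all genes. Leaving out a replicate gave a mean of 8.39 to 21.4 FPKM for Ass1 and 15.5 to 28.7 FPKM for Gm5424, but 34.6 to 37.1 FPKM for their sum. It gave 7 to 8 of the enzymes at 1 FPKM or more. The highest isoform gave the same levels by construction, since each of the 10 enzymes has 1 isoform. The depth-weighted mean moved no level by more than its SD. No paired analysis was possible because all samples form 1 group. Values resting on under 10 fragments in all, Nos2 and Arg2 among the enzymes, are limited by depth.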

Other observations

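Of 100 enzymes and pathway genes with 1 RefSeq entry, Gm5424 and Amd2 were the 2 listed away from their RefSeq position on GRCm38.p6. Of all 23143 symbols compared, 176 were listed away from theirs, and whether those lie at the locus of a similar gene was not tested.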
